A study of Mus musculus with 12 samples.

Results

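CD4+ T cells without Sirt2 were compared with wild-type CD4+ T cells after 24 h of stimulation through the T cell receptor. The comparison rests on 6 of the 12 libraries of the series, 3 of Sirt2-/- cells (KO) and 3 of wild-type cells (WT), chosen by the genotype and time in their titles. The WT mice were C57BL/6J, and the labels give the background of the Sirt2-/- mice as C57BL/6. All 6 libraries came from spleen CD4+ T cells, which were enriched by removing the other cells to a stated purity above 95% and then held for 24 h on plates coated with anti-CD3 antibody at 5 µg/ml, in RPMI medium with serum. The labels name no antibody to CD28 and no Cre driver. They do not say which part of Sirt2 was deleted, whether KO and WT mice were littermates, or whether each library of a group was a mouse of its own. The p-values therefore measure how much these libraries varied, and that variation may be technical. The other 6 libraries, of the same genotypes with RNA taken directly after isolation (0 h), entered the fit and are used here for the difference between the time points.

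SIRT2 is an NAD-dependent deacetylase that is found mainly in the cytosol and takes acetyl groups from tubulin, metabolic enzymes and histones. A resting CD4+ T cell that is stimulated through CD3, part of the T cell receptor complex, leaves quiescence, takes up more glucose and amino acids, builds ribosomes and prepares to divide. Sirt2 lies on chromosome 7, so genes near it are described apart from genes elsewhere.

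Reads in genes ranged from 3.63 to 8.02 megareads over the 6 libraries (two-sided exact permutation p = 0.3 between genotypes). The ribosomal RNA precursor Rn45s took 8.72% to 9.55% of these reads in WT and 7.95% to 8.16% in KO, with no overlap (two-sided exact permutation p = 0.1, the lowest value possible with 3 against 3). The cells carried the markers of their label, with 584 ± 66.2 CPM of Cd4 in WT cells and 564 ± 102 CPM in KO cells (SD, n = 3; CPM are read counts scaled to library size) and 1224 ± 53.1 and 1138 ± 107 CPM of Cd3e. Of the marker lists of other spleen cells, 0 genes passed the test below at 24 h. At 0 h the CD8 marker Cd8b1 passed, with 17.4 ± 0.392 CPM in WT and 31.5 ± 1.83 CPM in KO (log2 fold change 0.85, edgeR quasi-likelihood, adjusted p = 0.0176). At 24 h it overlapped between the groups (log2 0.36). The B cell marker Cd22, near Sirt2 on chromosome 7, was lower in KO at 0 h (log2 -2.49, edgeR quasi-likelihood, adjusted p = 0.0118), while Cd79a was not (log2 0.04). The summed CPM of B cell markers was 56.6 to 68.9 in WT and 38.6 to 69.7 in KO, that of myeloid and dendritic cell markers 54.3 to 60.7 and 50.2 to 70.1, that of NK cell markers 45.4 to 63.5 and 57.7 to 66.6, and that of CD8 T cell markers 8.09 to 11.0 and 8.79 to 14.7. Of 11 erythroid and platelet markers 8, the 5 globin genes among them, had 0 reads. Reads that match several globin genes would not have been counted, so these zeros do not show that globin RNA was absent. The chi-square per gene between replicates was 3.23 to 7.67, above sampling noise. The first principal component of the 6 libraries, with 26.3% of their variance, put the 3 WT libraries below 0 and the 3 KO libraries above. No read fell on 4 Y-linked genes.

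After 24 h few genes differed between KO and WT cells. Of 10981 genes tested, 30 passed (0.273%), of which 20 were higher (0.182%) and 10 lower in KO (0.0911%). A gene passed at a Benjamini-Hochberg (BH) adjusted p below 0.05 in edgeR's quasi-likelihood (QL) test. Levels are given as CPM, and fold changes as log2 of KO over WT each with its standard error (SE). In bulk RNA, fewer cells of a type and less RNA per cell cannot be told apart. At an unadjusted p below 0.05 there were 775 genes (7.06%). In 1419 genes (12.9%) KO and WT libraries did not overlap, 630 with KO higher (5.74%) and 789 with KO lower (7.19%), and all 30 genes that passed were among them. Leaving out 1 library at a time gave between 14 genes, without WT replicate 2, and 30 genes, without WT replicate 3. It gave 16 without KO replicate 1, 20 without KO replicate 2, 16 without KO replicate 3 and 22 without WT replicate 1.

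**Figure D1:**
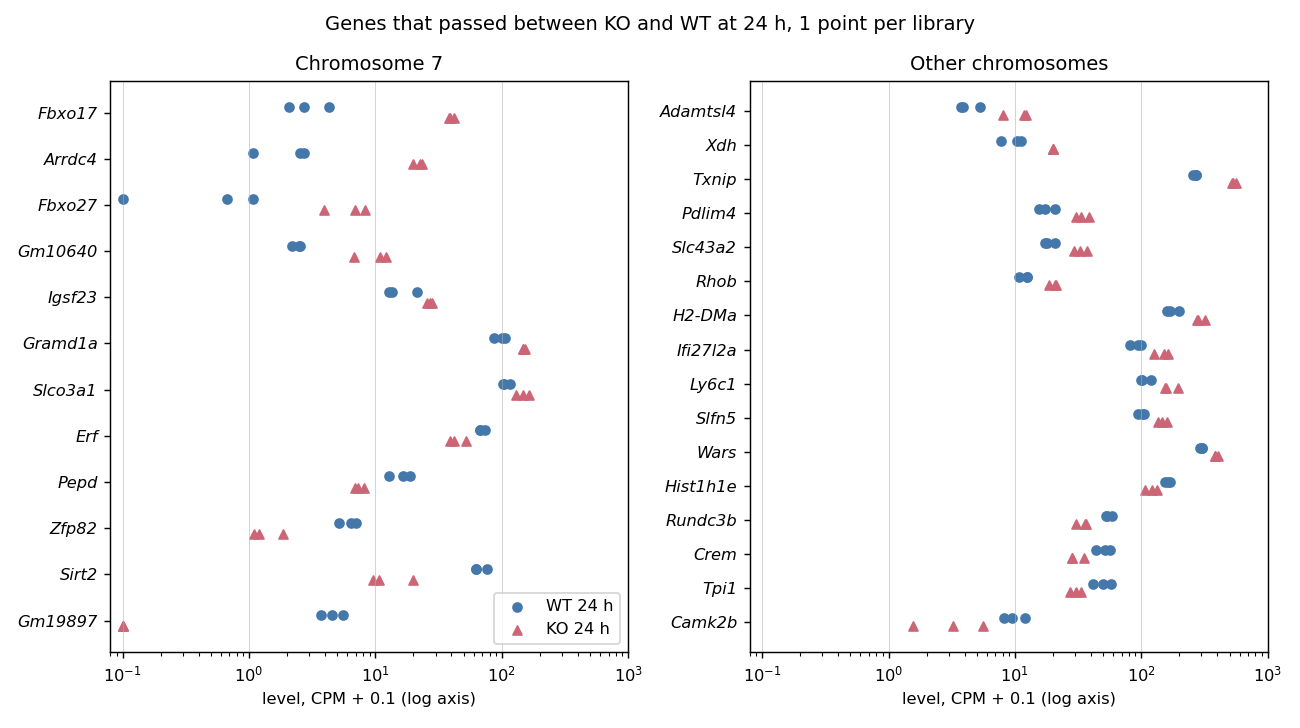
Level of 28 of the 30 genes that passed, on a log axis of CPM + 0.1, with 1 point per library (circles WT, triangles KO), for chromosome 7 on the left and other chromosomes on the right. In every gene drawn the 3 KO points lie on one side of the 3 WT points, and in Gm19897 all 3 KO libraries had 0 reads.

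Sirt2 itself was low in the 3 KO libraries. It had 62.3, 62.9 and 76.3 CPM in WT replicates 1 to 3 and 9.52, 10.5 and 19.7 CPM in KO replicates 1 to 3. KO replicate 3 held the most, and each KO library was under every WT library. The log2 fold change was -2.39 (SE 0.196, adjusted p = 1.25e-09 by edgeR QL). The remaining KO reads, 52 to 79 per library, could not be placed along the gene. Exons of Sirt2 and Nfkbib overlap on opposite strands in GENCODE and the strand setting of the counts is not given, so reads in the shared part are uncertain. Nfkbib, an inhibitor of NF-kappaB, had 71.8 ± 6.40 CPM in WT and 73.4 ± 11.2 CPM in KO (log2 0.03, 95% interval -0.22 to 0.28).

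Around Sirt2 the genes that passed were denser than elsewhere and went both ways. Near Sirt2 means within 250 genes of the RefSeq table on either side. There 152 genes were tested and 9 passed (5.92%), 5 higher and 4 lower in KO. The 9 include Sirt2 itself, the gene deleted in these mice, and Gm19897, a predicted gene within its span, both lower. They also include Gramd1a and Gm10640, whose exons overlap. On the rest of chromosome 7, 4 of 681 passed (0.587%), and on other chromosomes 17 of 10107 (0.168%), beside 0.273% over all genes. No overlap between the libraries was seen in 21.7% of the genes near Sirt2, 13.2% on the rest of chromosome 7 and 12.8% on other chromosomes. Chromosome 7 thus held 13 of the 30 genes, and 9 of the 13 changes over 2-fold, with Sirt2 and Gm19897 included in both counts. Genotype at Sirt2 and genotype at its neighbours cannot be told apart in these mice. With a window of 100 genes 5 genes near Sirt2 passed and 8 on the rest of the chromosome, and with a window of 500 genes 11 and 2 did. The outermost tested genes inside the window, Zfp180 (log2 -0.08) and Lsm14a (log2 -0.17), did not pass. Pepd, the next tested gene outside it on the side of Lsm14a, did.

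**Figure D2:**
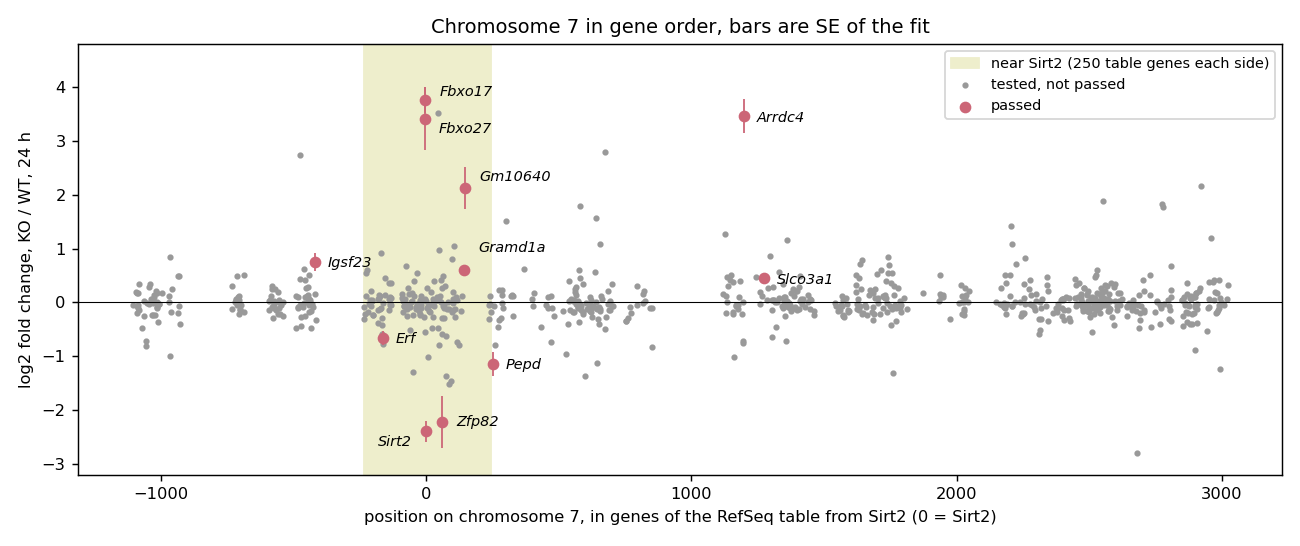
Log2 fold change of KO over WT at 24 h (vertical axis) for the tested genes of chromosome 7 by their place in the RefSeq gene order, counted from Sirt2 (horizontal axis). Large points passed and carry bars of 1 SE, small points did not pass, and the band marks the 250 genes on either side of Sirt2. In the band 9 of 152 genes passed, Sirt2 itself included, and 7 of them are drawn. Gm19897, at 0 reads in KO, is among those not drawn.

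The genes directly beside Sirt2 did not share its fall, apart from a predicted gene inside its span. Gm19897 follows Sirt2 in the RefSeq order and lies within it. It had 4.42, 5.4 and 3.63 CPM in WT, from 22, 47 and 26 reads, and 0 reads in each KO library. Against a floor of 3 counts over the KO group (0.197 CPM) it was at least 22.7-fold lower (edgeR QL, BH-adjusted p = 0.000102). On the other side Nfkbib and Sars2, which encodes the mitochondrial seryl-tRNA synthetase, had log2 fold changes of 0.03 and 0.06. Rinl, which encodes an exchange factor for Rab GTPases, had 67.7, 67.5 and 79.1 CPM in WT and 83.8, 86.7 and 86.8 CPM in KO. Its libraries did not overlap, but it did not pass (log2 0.26, SE 0.10, adjusted p = 0.529 by edgeR QL).

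A pair of F-box genes, 5 and 6 table genes from Sirt2, rose 13.6-fold and 10.7-fold. Fbxo17 and Fbxo27 encode subunits of ubiquitin ligases from the family whose members bind sugar chains on glycoproteins. Fbxo17 had 2.61, 1.95 and 4.18 CPM in WT and 39.2, 41.6 and 37.8 CPM in KO. Every KO library was far above every WT library, with a log2 fold change of 3.76 (SE 0.243, adjusted p = 2.00e-15 by edgeR QL). Fbxo27 was near the detection limit in WT, with 0, 5 and 7 reads or 0, 0.574 and 0.977 CPM, and had 6.77, 3.84 and 8.21 CPM in KO (log2 3.42, SE 0.594, adjusted p = 0.000764 by edgeR QL). Both passed in each fit without 1 library. The family's other tested member, Fbxo6, overlapped between the groups (log2 -0.06), and Fbxo2 and Fbxo44 were too low to test. Fbxo17 and Fbxo27 are similar in sequence, and reads that match both would not have been counted.

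Further from Sirt2 within the window, Zfp82, Erf, Gramd1a and Gm10640 were among the genes that passed. Zfp82, which encodes a zinc finger protein and lies 58 table genes away, had 5.02, 6.32 and 6.97 CPM in WT and 1.10, 1.75 and 0.995 CPM in KO (log2 -2.22, SE 0.479, adjusted p = 0.0175 by edgeR QL). Erf, a transcriptional repressor of the ETS family that is switched off by ERK signalling, had 67.1, 67.2 and 73.8 CPM in WT and 38.6, 42.1 and 52.0 CPM in KO (log2 -0.66, SE 0.130, adjusted p = 0.00505 by edgeR QL). Both fell in every KO library. Zfp82 missed the threshold without KO replicate 1, KO replicate 3, WT replicate 2 or WT replicate 3 (edgeR QL, BH-adjusted p up to 0.141), and Erf without KO replicate 1 or 2 (edgeR QL, BH-adjusted p up to 0.112).

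Gramd1a and Gm10640 lie 144 and 145 table genes from Sirt2. Gramd1a encodes a protein that carries cholesterol from the plasma membrane to the endoplasmic reticulum. It had 99.9, 107 and 86.9 CPM in WT and 152, 146 and 148 CPM in KO (log2 0.60, SE 0.0925, adjusted p = 8.80e-05 by edgeR QL). The predicted gene Gm10640 had 2.41, 2.07 and 2.37 CPM in WT and 12.1, 10.8 and 6.72 CPM in KO (log2 2.13, SE 0.389, adjusted p = 0.00181 by edgeR QL). Both rose in the 3 KO libraries, and both passed in each fit without 1 library. Their exons overlap on opposite strands, so without a strand setting their reads cannot be told apart.

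Near Sirt2 a further 7 genes differed by over 2-fold in the fit without passing. The largest was Zfp30 (log2 3.51, SE 1.00, adjusted p = 0.189 by edgeR QL), a zinc finger gene. Dedd2, which encodes a death effector domain protein and lies 169 table genes from Sirt2, had 20.7, 20.4 and 19.4 CPM in WT and 13.2, 11.7 and 13.2 CPM in KO. Its libraries did not overlap, and it missed the threshold (log2 -0.67, SE 0.168, adjusted p = 0.0783 by edgeR QL).

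On the rest of chromosome 7, 1 gene fell and 3 rose. Pepd, just outside the window at 253 table genes, encodes the dipeptidase that releases proline. It had 12.7, 18.7 and 16.3 CPM in WT and 6.77, 7.16 and 7.96 CPM in KO (log2 -1.14, SE 0.230, adjusted p = 0.00706 by edgeR QL). Igsf23, an immunoglobulin superfamily gene 418 table genes away, had 12.7, 13.4 and 21.3 CPM in WT and 28.0, 26.9 and 25.6 CPM in KO (log2 0.76, SE 0.169, adjusted p = 0.0251 by edgeR QL). Slco3a1, which encodes a transporter of organic anions and lies 1274 table genes away, rose from 108 ± 7.92 to 147 ± 17.4 CPM (log2 0.45, SE 0.0994, adjusted p = 0.0238 by edgeR QL). None of these groups overlapped. Pepd missed the threshold without KO replicate 1, KO replicate 2 or WT replicate 2 (edgeR QL, BH-adjusted p up to 0.131). Igsf23 missed it in each such fit except that without WT replicate 3 (edgeR QL, BH-adjusted p up to 0.294), and Slco3a1 missed it without KO replicate 1, KO replicate 3, WT replicate 2 or WT replicate 3 (edgeR QL, BH-adjusted p up to 0.417) and at equal depth (edgeR QL, BH-adjusted p = 0.0690).

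The alpha-arrestins Arrdc4 and Txnip were higher in KO. Both proteins restrain glucose uptake, and both genes are textbook targets of the sugar-sensing factors MondoA and ChREBP, which bind DNA together with MLX. Arrdc4 is the fourth gene of the rest of chromosome 7, at 1200 table genes from Sirt2, and Txnip is on chromosome 3. A stretch of 100 bases upstream of the Arrdc4 start site is shown for the E-box in it, a general element that many factors bind. It is RefSeq sequence of GRCm38.p6, read 5′ to 3′ on the gene's strand, and the capitals mark the match.

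Arrdc4, chr7:68749369-68749468, minus strand: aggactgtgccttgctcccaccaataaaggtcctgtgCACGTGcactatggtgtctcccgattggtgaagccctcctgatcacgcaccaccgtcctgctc

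The capitals are CACGTG, an E-box, searched on both strands, 193 bases before the start. The windows searched were 300 bases long, from 250 before each start, and these letters stood in 2349 of 32851 of them (7.15%). Of the 30 genes that passed, 22 had a window, and Pepd was the other with an E-box. The Txnip window did not hold these letters. A match is a description of letters and not evidence of binding.

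Txnip had 271, 259 and 271 CPM in WT and 522, 568 and 536 CPM in KO. The log2 fold change, 1.02, was close to a doubling (SE 0.0941, adjusted p = 2.58e-10 by edgeR QL), about the same in each KO library. Arrdc4 had 2.61, 2.41 and 0.977 CPM in WT and 23.2, 22.4 and 19.7 CPM in KO, from near absence to a clear level (log2 3.46, SE 0.312, adjusted p = 2.85e-10 by edgeR QL). Both passed in each fit without 1 library. Exons of Txnip overlap those of Gm15441 on the other strand, and Gm15441 did not pass (log2 1.67, edgeR QL, BH-adjusted p = 0.584). Of the list of alpha-arrestins and MLX partners 2 of 7 tested genes rose and 0 fell, beside 0.182% and 0.0911% of all genes. The list, chosen with earlier results of these data known, had a median of 0.35 beside -0.01 over all genes. The other alpha-arrestins Arrdc1, Arrdc2 and Arrdc3 had log2 fold changes of 0.34, 0.37 and 0.35 with overlapping libraries, and Mlx and Mlxip, which encodes MondoA, had -0.06 and 0.10. Mlxipl, which encodes ChREBP, had 0 reads.

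On other chromosomes 3 further genes of metabolism passed. Xdh, which encodes xanthine oxidoreductase, the last enzyme of purine breakdown, had 10.2, 7.69 and 11.0 CPM in WT and 19.8, 20.1 and 19.9 CPM in KO (log2 1.06, SE 0.207, adjusted p = 0.00505 by edgeR QL). Slc43a2, which encodes a transporter of large neutral amino acids, had 17.1, 17.8 and 20.8 CPM in WT and 37.3, 32.7 and 29.4 CPM in KO (log2 0.84, SE 0.144, adjusted p = 0.000699 by edgeR QL). Tpi1, the triose phosphate isomerase of glycolysis, had 41.4, 49.6 and 57.9 CPM in WT and 27.1, 33.4 and 30.1 CPM in KO (log2 -0.72, SE 0.155, adjusted p = 0.0172 by edgeR QL). Xdh and Slc43a2 rose and Tpi1 fell, each in all 3 KO libraries. Slc43a2 passed in each fit without 1 library, Xdh missed the threshold without WT replicate 2 (edgeR QL, BH-adjusted p = 0.131) and Tpi1 without KO replicate 1, KO replicate 3, WT replicate 2 or WT replicate 3 (edgeR QL, BH-adjusted p up to 0.201) and at equal depth (edgeR QL, BH-adjusted p = 0.0533). Tpi1 has pseudogenes and shares exon bases with Spsb2, so its counts are uncertain.

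The metabolic lists held no further gene that passed, by edgeR or by DESeq2. In glycolysis and glucose uptake 1 of 23 tested genes fell, Tpi1, and the median was -0.07, with 19 members below 0. At an unadjusted p below 0.05, 4 were lower, beside 7.06% of all genes in both directions together. The glucose transporter gene Slc2a1, chosen here after its values were seen, had 49.8, 43.6 and 54.0 CPM in WT and 42.3, 40.7 and 34.6 CPM in KO, without overlap (log2 -0.32, SE 0.142, adjusted p = 0.626 by edgeR QL). Of the 23 tested genes 2 were lower and 1 was higher without overlap, close to the shares of all genes (7.19% and 5.74%). In the TCA cycle 0 of 29 passed (median 0.00), among the nuclear subunits of oxidative phosphorylation 0 of 76 (median -0.02), in fatty acid oxidation 0 of 24 (median -0.06) and in glutaminolysis 0 of 13 (median -0.07). Ogdh, of the TCA cycle, had a log2 fold change of 0.04, Atp5b, of the ATP synthase, -0.02, and Hadha, of fatty acid oxidation, -0.15. Of 14 amino acid transporters 1 passed, Slc43a2, and of 21 genes of purine synthesis and breakdown 1 passed, Xdh. The pentose phosphate pathway (0 of 8), serine and one-carbon metabolism (0 of 15), cholesterol synthesis (0 of 19) and NAD metabolism (0 of 13) had medians from -0.08 to 0.08. Among the 7 sirtuins Sirt2 fell and the others did not pass.

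Genes tied to interferon lay higher in KO, mostly by little. Ifi27l2a, an interferon-induced gene of mitochondrial membranes, had 93.8, 81.6 and 99.6 CPM in WT and 127, 150 and 162 CPM in KO (log2 0.67, SE 0.106, adjusted p = 0.000120 by edgeR QL). It was the member of the interferon-stimulated list that passed, 1 of 31 tested. The list had a median of 0.20, with 30 of 31 members above 0, and no overlap with KO higher in 8 members, beside 47.7% of all genes above 0 and 5.74% of all genes without overlap and higher. At an unadjusted p below 0.05 there were 9 members, all higher, beside 7.06% of all genes in both directions together. The member below 0 was Oas1a. Ifit1 (log2 0.50), Ifit3 (0.53), Oas2 (0.68) and Ddx58 (0.33), named after their values were seen, were among the 8 and did not pass. The library medians of the list, as log2 from the WT mean, were 0.02, -0.10 and 0.12 in WT and 0.16, 0.24 and 0.26 in KO, so WT replicate 3 lay near KO replicate 1. The list already lay higher in KO at 0 h, with a median of 0.13.

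Other genes known to respond to interferon also passed, and they are set together here after their values were seen. Slfn5, a schlafen family gene, had 102, 94.9 and 104 CPM in WT and 135, 146 and 160 CPM in KO (log2 0.55, SE 0.105, adjusted p = 0.00371 by edgeR QL). Wars, the cytosolic tryptophanyl-tRNA synthetase, had 290, 304 and 304 CPM in WT and 380, 382 and 408 CPM in KO (log2 0.38, SE 0.0858, adjusted p = 0.0256 by edgeR QL). H2-DMa, a chain of the chaperone that loads peptides onto MHC class II, had 160, 168 and 199 CPM in WT and 279, 320 and 275 CPM in KO (log2 0.73, SE 0.105, adjusted p = 4.30e-05 by edgeR QL). Each rose in all 3 KO libraries. Exons of H2-DMa overlap those of Brd2 on the other strand, and Brd2 did not differ in step (log2 -0.10). H2-DMa passed in each fit without 1 library, Slfn5 missed the threshold without WT replicate 2 or KO replicate 3 (edgeR QL, BH-adjusted p up to 0.0892), and Wars in all 6 such fits (edgeR QL, BH-adjusted p up to 0.321). Of the MHC class I and immunoproteasome list 0 of 15 passed, with a median of 0.04, 11 members above 0 and 0 without overlap in either direction.

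The MHC class II genes typical of B cells and dendritic cells went both ways without passing. Cd74, the invariant chain, had 46.0, 54.4 and 44.2 CPM in WT and 28.6, 51.2 and 41.3 CPM in KO, which overlap. H2-Aa, H2-Ab1 and H2-Eb1 had mean levels of 1.54, 2.06 and 2.66 CPM in WT and 2.52, 4.18 and 1.87 CPM in KO (log2 0.69, SE 0.575 for H2-Aa, log2 0.97, SE 0.487 for H2-Ab1 and log2 -0.45, SE 0.630 for H2-Eb1). H2-Aa did not overlap between the groups and H2-Ab1 and H2-Eb1 did. At these low levels a change as large as that of H2-DMa could not be told from none. The B cell marker Cd79a was at 3.61 ± 1.23 and 2.76 ± 1.13 CPM. The part of other cell types in the rise of H2-DMa was not tested.

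Genes of resting and naive T cells went both ways, and 3 passed, all higher in KO, Ly6c1 and Txnip among them. Ly6c1, a surface antigen of lymphocytes, had 102, 99.4 and 119 CPM in WT and 158, 197 and 153 CPM in KO (log2 0.67, SE 0.101, adjusted p = 6.14e-05 by edgeR QL). Of the list of quiescence and naive genes 3 of 27 tested members rose and 0 fell, beside 0.182% and 0.0911% of all genes. Txnip is also counted in the alpha-arrestin list and Ly6c1 in that of Ly6 genes. Without overlap 7 members were higher and 4 lower in KO, beside 5.74% and 7.19% of all genes. At an unadjusted p below 0.05, 3 were higher and 3 lower, beside 7.06% of all genes in both directions together. The list's median was 0.04. The chemokine receptor gene Ccr7 went the other way without passing (log2 -0.17), while Il7r (0.18), Klf2 (0.10) and S1pr1 (0.15) lay slightly higher, all 4 named after their values were seen. Ly6c1 rose in all 3 KO libraries.

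All 6 tested Ly6 genes had positive fold changes, with a median of 0.45, and 1 passed. Ly6a had 395, 373 and 496 CPM in WT and 500, 640 and 563 CPM in KO (log2 0.43, SE 0.115, adjusted p = 0.185 by edgeR QL), which missed overlap by a narrow margin. Ly6e overlapped between the groups (log2 0.39). Both are named after their values were seen. Reads that match more than 1 gene of this family would not have been counted.

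Genes induced by T cell receptor signals lay slightly lower in KO, and 0 of the 26 tested passed, while DESeq2 called 1, Irf4. The median was -0.12, with 23 of 26 below 0. The library medians of the list, as log2 from the WT mean, were -0.036, -0.104 and 0.155 in WT. In KO they were -0.154, -0.0658 and -0.145, so KO replicate 2 lay above WT replicate 2. Without overlap 8 members were lower and 1 was higher in KO, beside 7.19% and 5.74% of all genes. At an unadjusted p below 0.05 there were 7, all lower, beside 7.06% of all genes in both directions together. Egr1, an early transcription factor, had 1277, 1217 and 1540 CPM in WT and 1026, 1143 and 1180 CPM in KO (log2 -0.27, SE 0.0944, adjusted p = 0.431 by edgeR QL). The list already lay lower in KO at 0 h, with a median of -0.21, and Egr1 had a log2 fold change of -0.27 there. Irf4, a transcription factor whose level follows the strength of the receptor signal, had 760, 757 and 786 CPM in WT and 587, 644 and 634 CPM in KO (log2 -0.30, SE 0.0837, adjusted p = 0.157 by edgeR QL). The member that was higher was Il2, the T cell growth factor, with 4.25 ± 0.727 CPM in WT cells and 6.65 ± 0.164 CPM in KO cells (log2 0.63, SE 0.463, adjusted p = 0.861 by edgeR QL). Irf4 and Il2 are named after their values were seen. Il2ra, the high-affinity receptor chain for it, had 739 ± 88.0 and 683 ± 49.6 CPM. None of these differences passed in edgeR.

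The genes that passed also included Camk2b, Crem, Rundc3b and Rhob, which are set together here after their values were seen. Camk2b, a calcium/calmodulin-dependent kinase, had 8.04, 11.8 and 9.35 CPM in WT and 1.46, 3.14 and 5.47 CPM in KO (log2 -1.60, SE 0.333, adjusted p = 0.0106 by edgeR QL). Crem, a transcription factor that responds to cyclic AMP, had 56.1, 43.6 and 52.0 CPM in WT and 28.4, 35.0 and 28.4 CPM in KO (log2 -0.72, SE 0.167, adjusted p = 0.0359 by edgeR QL). Rundc3b, which encodes a RUN domain protein, had 58.3, 53.2 and 52.3 CPM in WT and 36.6, 30.4 and 36.1 CPM in KO (log2 -0.67, SE 0.145, adjusted p = 0.0182 by edgeR QL). These 3 fell in every KO library. Rhob, a small GTPase of endosomes that is induced early after stimulation, had 10.7, 12.4 and 12.3 CPM in WT and 18.7, 21.1 and 20.7 CPM in KO (log2 0.76, SE 0.171, adjusted p = 0.0256 by edgeR QL).

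None of these 4 calls held in all fits without 1 library. Crem and Rhob passed in none of the 6 (edgeR QL, BH-adjusted p up to 0.321 and 0.188). Rhob also missed the threshold at equal depth and with the 24 h libraries alone (edgeR QL, BH-adjusted p = 0.0649 and 0.0539), and Crem with the replicate numbers as a block (edgeR QL, BH-adjusted p = 0.0575). Camk2b missed the threshold without KO replicate 1, KO replicate 2 or WT replicate 2 (edgeR QL, BH-adjusted p up to 0.230), and Rundc3b in each fit except that without WT replicate 3 (edgeR QL, BH-adjusted p up to 0.200). Of the cyclic AMP list 1 of 20 tested genes fell, Crem, and of the early response list 1 of 23 rose, Rhob. Pde2a, a phosphodiesterase that breaks down cyclic nucleotides, lies on chromosome 7, 1756 table genes from Sirt2. It had 26.1, 26.6 and 32.1 CPM in WT and 40.6, 42.6 and 40.8 CPM in KO. At 24 h it missed the threshold (log2 0.55, SE 0.133, adjusted p = 0.0550 by edgeR QL), while DESeq2 called it (BH-adjusted p = 0.0407). At 0 h Pde2a passed (log2 0.545, adjusted p = 0.0135 by edgeR QL).

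Pdlim4 and Adamtsl4 belong to none of the lists. Pdlim4, which encodes an actin-associated protein, had 17.1, 20.6 and 15.5 CPM in WT and 33.5, 30.4 and 38.6 CPM in KO (log2 0.93, SE 0.179, adjusted p = 0.00376 by edgeR QL), without overlap. Its adjusted p was 0.0794 by edgeR QL without KO replicate 3. Adamtsl4, a secreted glycoprotein of the extracellular matrix, had 5.22, 3.67 and 3.77 CPM in WT and 11.7, 12.1 and 7.96 CPM in KO (log2 1.35, SE 0.320, adjusted p = 0.0424 by edgeR QL). It passed in none of the fits without 1 library (edgeR QL, BH-adjusted p up to 0.255), and at equal depth its value was 1.06 (edgeR QL, BH-adjusted p = 0.309). With the replicate numbers as a block its adjusted p was 0.0580 by edgeR QL.

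Linker histones, which bind the DNA between nucleosomes, lay lower in KO. Hist1h1e had 163, 154 and 168 CPM in WT and 107, 133 and 122 CPM in KO (log2 -0.42, SE 0.0959, adjusted p = 0.0291 by edgeR QL). It was the member that passed, 1 of 6 tested, and all 6 were below 0 with a median of -0.42. In Hist1h1b (log2 -0.88), Hist1h1d (-0.41) and H1f0 (-0.45), named after their values were seen, the groups did not overlap either. Hist1h1e missed the threshold in each fit without 1 library except the fit that left out KO replicate 2 (largest adjusted p 0.353 by edgeR QL) and at equal depth (0.0958 by edgeR QL), and its exons overlap those of Hist1h2be. Of the core histones 0 of 49 passed, by edgeR or DESeq2. Their median was -0.23, 36 lay below 0 and 7 were lower without overlap, beside a median of -0.01 and 7.19% over all genes. At an unadjusted p below 0.05, 10 were lower, beside 7.06% of all genes in both directions together. Among cell cycle genes 0 of 39 passed (median -0.10, 30 below 0).

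Ribosome genes lay slightly lower in KO, and none passed in edgeR or DESeq2. Of 80 ribosomal protein genes 77 had a negative log2 fold change, with a median of -0.14 beside -0.01 over all genes. The library medians of this list, as log2 from the WT mean, were -0.0445, -0.0896 and 0.123 in WT. In KO they were -0.266, -0.0144 and -0.154, so KO replicate 2 lay above WT replicates 1 and 2 and the groups overlapped. Of the 80, 11 were lower without overlap, beside 7.19% of all genes. At an unadjusted p below 0.05, 22 were lower, beside 7.06% of all genes in both directions together. Many of these genes are highly expressed, and the 99 genes above 1000 CPM, Rps24 among them, had a median of -0.12. Of those 99, 22.2% did not overlap in 1 direction or the other. The list was not compared with other genes of its level. Rps24 had 3944, 3671 and 4140 CPM in WT and 3174, 3667 and 3089 CPM in KO (log2 -0.24, SE 0.0921, adjusted p = 0.529 by edgeR QL), where KO replicate 2 nearly met WT replicate 2. Of 30 ribosome biogenesis genes 26 were negative with a median of -0.15, and 10 were lower without overlap, beside the same 7.19% of all genes. The library medians of that list were -0.0179, -0.0679 and 0.0858 in WT and -0.13, -0.141 and -0.149 in KO. At an unadjusted p below 0.05, 9 were lower, beside the same 7.06% of all genes. Ncl, nucleolin, had 2021 ± 202 CPM in WT and 1762 ± 196 CPM in KO (log2 -0.20), and Npm1, nucleophosmin, 1277 ± 117 and 1094 ± 77.2 CPM (log2 -0.22). The Rn45s share was lower in KO, as given above, in libraries whose ribosomal RNA had been reduced by probes. With Rn45s left out of the fit the median over all genes was -0.0079, and the medians of these lists in that fit are not given here. A link between that share and these medians was not tested.

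**Figure D3:**
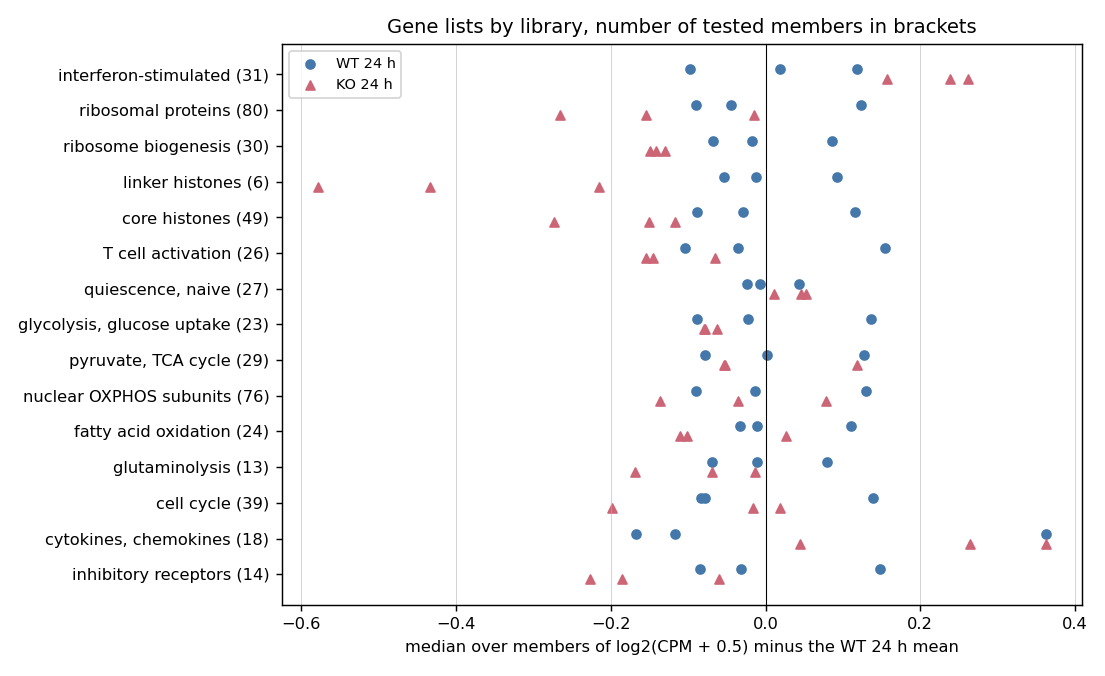
Median over the tested members of each list (number in brackets) of log2(CPM + 0.5) minus the gene's WT 24 h mean, with 1 point per library (circles WT, triangles KO). The KO points of the interferon-stimulated list lie to the right of the WT points and those of linker histones to the left, and in every list drawn except quiescence WT replicate 3 is the rightmost of the WT points.

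Effector, lineage and inhibitory genes held no gene that passed in edgeR, and 1 that DESeq2 called, Il4ra. Among cytokines and chemokines 0 of 18 passed (median 0.17), among cytokine receptors 0 of 32 (median 0.02), among T helper lineage genes 0 of 18 (median -0.10) and among regulatory T cell genes 0 of 13 (median -0.05). Foxp3, which defines regulatory T cells, had 181 ± 37.3 and 154 ± 15.8 CPM. Inhibitory receptors and their regulators had 0 of 14 (median -0.20). Cd274, which encodes PD-L1, had a log2 fold change of 0.08. Il4ra, the receptor chain for IL-4 and IL-13, lies on chromosome 7, 2450 table genes from Sirt2. It had 482, 482 and 516 CPM in WT and 599, 602 and 650 CPM in KO and missed the threshold (log2 0.32, SE 0.0831, adjusted p = 0.0942 by edgeR QL). Components of the receptor complex and its kinases (0 of 27) had a median of 0.01. The integrated stress response with that to unfolded proteins (0 of 19) had a median of -0.10, BCL2 family and survival genes (0 of 19) -0.01, cytotoxic genes (0 of 13) 0.08, MHC class I and immunoproteasome genes (0 of 15) 0.04, mitochondrial ribosomal proteins (0 of 76) -0.05 and tubulins with their deacetylases (0 of 12) -0.11.

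A further 8 genes had an adjusted p between 0.05 and 0.1, beside Dedd2 and Il4ra and with Pde2a among them. In KO the lower were Anxa5 (log2 -0.51), a phospholipid-binding protein, the histone gene Hist1h2ak (-0.46) and the histone chaperone gene Nap1l1 (-0.33). The higher were Arhgap4 (log2 0.43), an activator of GTP hydrolysis by small GTPases, Pglyrp2 (0.47), a peptidoglycan-cleaving enzyme, Dpp4 (0.48), the surface peptidase CD26, and Tcf7l2 (2.31), a transcription factor of Wnt signalling. Of these, DESeq2 called Nap1l1, Arhgap4, Pglyrp2, Dpp4, Tcf7l2 and Pde2a, and it called Dedd2 too. Tcf7l2 was the nearest to the threshold from outside (edgeR QL, BH-adjusted p = 0.0517), and Adamtsl4 was the nearest from inside (edgeR QL, BH-adjusted p = 0.0424).

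Across the expressed range the differences were small for most genes. The median absolute log2 difference was 0.132 and the median SE 0.177. Over 2-fold lay 244 genes, of which 13 passed. By mean CPM over the 6 libraries, which is not corrected for gene length, 0 of 266 genes under 1 CPM passed, 7 of 3044 from 1 to 10 CPM, 13 of 5827 from 10 to 100 CPM, 10 of 1745 from 100 to 1000 CPM and 0 of 99 above. The median SE fell from 0.416 between 1 and 10 CPM to 0.0926 between 100 and 1000 CPM. The smallest passing absolute log2 difference fell with it, from 1.35 to 0.36. Of the 10 that passed between 100 and 1000 CPM 9 were higher in KO. The 99 genes above 1000 CPM had a median of -0.12. In data simulated from these libraries the test found 34.3% of changes of 1.5-fold, 68.7% of 2-fold and 93.9% of 4-fold, so changes under 2-fold could often be missed at this depth.

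**Figure D4:**
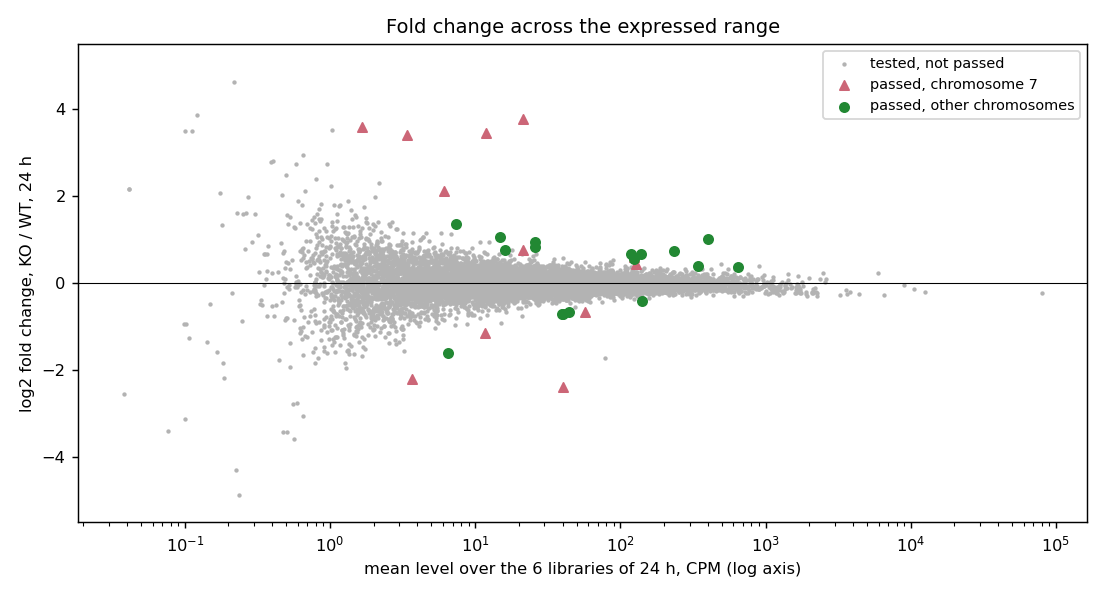
Log2 fold change of KO over WT at 24 h (vertical axis) against the mean level over the 6 libraries of 24 h in CPM (horizontal log axis), with 1 point per tested gene. Triangles passed and lie on chromosome 7, circles passed and lie on other chromosomes, and Gm19897 is not drawn; 4 of 17 circles and 9 of 13 genes of chromosome 7 exceeded 2-fold.

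The differences at 24 h were then set beside those at 0 h. The 0 h libraries are others, but they entered the same fit and its estimate of the spread. The calls at the time points are therefore not independent. At 0 h 38 of 10981 genes passed between KO and WT (0.346%). Of the 30 genes of 24 h, 11 also passed at 0 h. These were 6 of the 9 near Sirt2, 2 of the 4 on the rest of chromosome 7 and 3 of the 17 elsewhere, namely Txnip, Ly6c1 and Rhob. Sirt2 itself and Gm19897 are among the 6. The sign was the same at both times in 27 of the 30, in 13 of 13 on chromosome 7 and in 14 of 17 elsewhere. The share of equal signs over all genes is not given here. Arrdc4 had log2 fold changes of 3.46 at 24 h and 4.30 at 0 h, Txnip 1.02 and 1.04, Pepd -1.14 and -1.24, and Sirt2 -2.39 and -2.60. Fbxo17 had 3.76 and 2.44, a difference that did not pass (interaction log2 1.33, edgeR QL, BH-adjusted p = 0.422).

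Several genes passed at 24 h with little difference at 0 h, while the interferon-stimulated list had medians of 0.20 and 0.13 at these times. Ifi27l2a had log2 fold changes of 0.67 and 0.06, Slfn5 0.55 and 0.11, Wars 0.38 and 0.02, Slco3a1 0.45 and 0.03, and Tpi1 -0.72 and -0.06. Crem had -0.72 at 24 h and 0.23 at 0 h. The interaction of genotype and time did not pass for any of these (edgeR QL, BH-adjusted p of 0.305 for Ifi27l2a and 0.478 for Crem, and from 0.806 to 0.840 for the others), so a difference between the time points is not shown for them. It passed for 1 of 10981 genes (0.00911%), Hist1h1e, with 575 at an unadjusted p below 0.05 (5.24%), and DESeq2 also called 1. Hist1h1e had 134 ± 14 CPM in WT and 164 ± 8.07 CPM in KO at 0 h (log2 0.28, SE 0.0940), against 162 ± 7.07 and 121 ± 13.1 CPM at 24 h. The interaction was -0.71 on the log2 scale (edgeR QL, BH-adjusted p = 0.0442). No gene passed the interaction with RLE factors, a minimum count of 30, the replicate block, Rn45s left out or equal depth, and 1 gene passed in 1 of the 6 fits without a library, that without KO replicate 2.

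**Figure D5:**
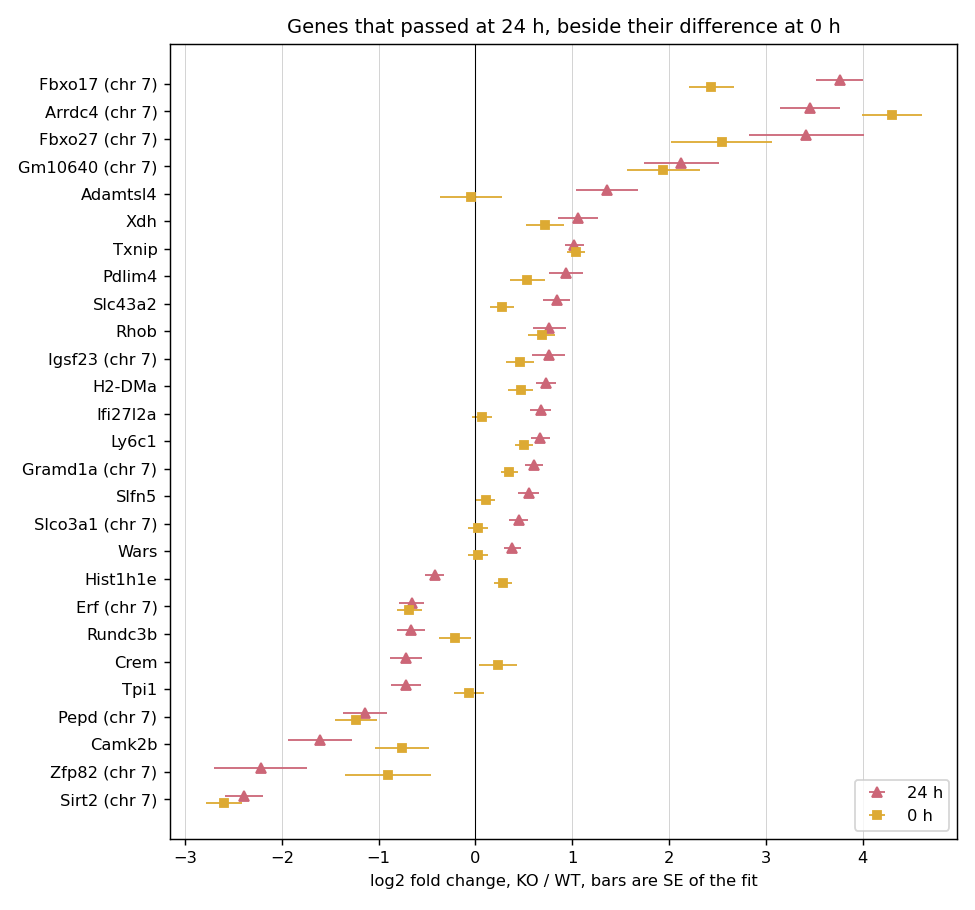
Log2 fold change of KO over WT at 24 h (triangles) and at 0 h (squares), with bars of 1 SE, for 27 of the 30 genes that passed at 24 h. Genes of chromosome 7 are marked, and the 2 points of Arrdc4, Txnip, Pepd and Sirt2 lie far on the same side of 0 while those of Hist1h1e lie on opposite sides.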

How the data were processed

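RNA was sequenced from 12 libraries of mouse CD4+ T cells in 4 groups of 3, grouped by their titles, of which 6 form the comparison described here. Per the labels' protocols, total RNA libraries were made from 100 ng of RNA with ribosomal RNA reduced by probes. The authors deposited raw read counts per gene symbol. Per the submitters' processing notes, the aligner was STAR 2.6.0c, and DESeq and the build hg19 are named. That build is human while the symbols are those of mouse, so coordinates of the counts are not used, and which program, annotation and strand setting produced the counts is not given in the sources used here. The 5 closing entries of each table, which stand for no gene, were left out of its 23479 symbols. In the 24 h libraries reads of no feature were 22.8% to 35.4% of all listed, ambiguous reads 0.412% to 0.576% and reads aligned to several places 25.7% to 27.7%. Reads that match several gene copies were therefore not counted for any.

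Counts were tested with edgeR 4.0.16 (R 4.3.3) by its quasi-likelihood test (robust setting, no covariates, 4 groups fitted together) after filterByExpr (minimum count 10, minimum total 15) and TMM scaling. CPM values carry the TMM factors. Benjamini-Hochberg adjustment covered 10981 genes. The script was tested on simulated data with 200 changed genes, where 9 calls were false. Single values per library were compared by exact permutation. Chromosomes and gene order came from RefSeq (GRCm38.p6), where 21692 symbols matched as written, 1624 matched a synonym and 163 had no match. Exon overlaps came from GENCODE, where Crem (with Gm6225), Slc43a2 (Gm45606), Slfn5 (Slfn5os) and Zfp82 (Gm26920) also share bases with another gene, which makes their counts uncertain.

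Alternatives were DESeq2 1.42.0, RLE factors, no filter, a minimum count of 30, the replicate number as a block, Rn45s left out, equal depth, the 24 h libraries alone, each 24 h library left out and windows of 100 and 500 genes around Sirt2. The comparison, the gene lists and the tests were chosen with earlier results of these data known. The rule for naming genes took every gene that passed, Sirt2, the tested genes beside it, genes with an adjusted p from 0.05 to 0.1 and, of each list, the members that passed or else the 2 of highest level. Sequence of Crem is not shown, and a few genes that the rule takes are not reported here.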

Additional observations from a re-analysis of the deposited data

Results flagged for a closer look

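Hist1h1e, a linker histone gene, was singled out because its difference between KO and WT was not the same at 24 h and at 0 h. The interaction of genotype and time was -0.71 on the log2 scale (edgeR QL, BH-adjusted p = 0.0442). KO lay below WT at 24 h (log2 -0.42) and above it at 0 h (log2 0.28), where the difference did not pass (edgeR QL, BH-adjusted p = 0.288). The interaction passed in 1 of the 6 fits that left out a 24 h library, that without KO replicate 2.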

How the results depend on the processing

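All 30 genes kept their direction in every fit in which they were tested, 12 passed in each of the 6 fits without 1 library, and 22 passed in all other fits. The number that passed was 30 as reported, 45 with DESeq2, 33 with RLE factors, 43 without a filter, 31 at a minimum count of 30, 30 without Rn45s, 31 at equal depth (24 of the 30 among them) and 38 with the 24 h libraries alone. DESeq2 called 31 higher in KO, and DESeq2 and the fit without a filter each called 29 on other chromosomes, against 20 and 17. Without 1 library the total ran from 14 to 30, higher from 11 to 24, lower from 2 to 7, near Sirt2 from 6 to 8, the rest of chromosome 7 from 1 to 4, other chromosomes from 6 to 18 and the interaction from 0 to 1. A window of 100 genes put 5 near Sirt2 and 8 on the rest of chromosome 7, and 1 of 500 genes left 2 there. The interaction gave 0 genes with RLE factors, a minimum count of 30, the replicate block, Rn45s left out and equal depth, and 3 without a filter. With the replicate block 28 genes passed, 26 of the 30 among them, and Adamtsl4 and Crem were among those lost. Between WT and KO at 24 h the replicate numbers did not pair the libraries, since same-numbered ones correlated at 0.0795, -0.152 and -0.00246 in their deviations and 1 of 6 correlated best with its own number. Between 0 h and 24 h same-numbered libraries correlated at 0.0208, 0.149 and 0.148 in WT and at 0.065, -0.024 and 0.0837 in KO, which is not over 0.1 in every pair, and the interaction, which uses these libraries, gave 0 genes with the block. Of the other alternatives for single genes 1292 values stayed on their side of the threshold, 83 lost it, 25 gained it and 22 moved, and 589 list medians moved by less than the spread while 26 moved by more. The median over all genes shifted by under 0.1 in each fit. The cause of these changes was not tested. Depth limits genes under about 10 CPM, where the SE was widest.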

Other observations

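Among genes above 10 CPM on average, 7 differed by over 2-fold between KO and WT at 24 h, and 6 of them passed. The other was Erdr1, a gene named for inducing erythroid differentiation, which was picked out after its values were seen. Its levels were 159, 87.1 and 116 CPM in WT and 51.1, 28.8 and 27.1 CPM in KO. The groups did not overlap, but the libraries within each group were far apart, and the gene missed the threshold (log2 -1.73, SE 0.418, adjusted p = 0.307 by edgeR QL, unadjusted p = 0.00298).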
